A study of Drosophila melanogaster with 2 samples.

Results

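The Vha genes of Drosophila melanogaster encode the subunits of the vacuolar proton pump, the V-ATPase. They were taken as all genes whose symbol starts with Vha in the Ensembl release 115 annotation of dm6, which gave 33 genes, all protein-coding, of 18277 annotated genes and 13968 protein-coding genes. A binding call was assigned to a gene when its summit lay within 500 bp of any annotated start of that gene or inside the gene. By this rule 18 of the 33 Vha genes had at least 1 call, and 7 had a call that passed the authors' reproducibility threshold. The members were chosen by name and not by binding, although earlier results of these data were known when the list was drawn up. The names fall into classes. A first class of 13 genes has either no paralogue number or the number 1 and is called the principal subunit genes here. This label stands for the name alone and says nothing of where a gene is used. A second class of 13 genes is numbered 2, 3 or 4 and is called the numbered paralogues. The remaining 7 genes carry the number 5, a letter (VhaM9.7-a to VhaM9.7-d) or the name VhaAC45RP.

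Binding was mapped by chromatin immunoprecipitation with sequencing (ChIP-seq) in whole Drosophila embryos of both sexes, 0 to 16 h old. The single group had 2 biological replicates, numbered 1 and 3, of 1 transgenic line in which an intron of ADD1 holds an exon for eGFP, so that the locus itself makes the fusion protein ADD1-GFP. The antibody was against GFP per the sample descriptions, while the antibody field names CG8290, the systematic name of ADD1. No second group and no control library was analysed, and all embryonic cell types contributed to each value, so binding in few cells and weak binding in many cannot be told apart. ADD1 is known as a heterochromatin protein with an ADD domain like that of mammalian ATRX.

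Each replicate's list and the list called on the pool of both held 30000 calls. The pooled signal ran from 25.8 to 1451 with a median of 41.8, and the signal is the peak caller's own score for each call, used here only for rank within a list. The kept peaks are the list that the authors deposited after comparing ranks between replicates. They are the 4402 strongest pooled calls, so being kept is the same as having a pooled rank of 4402 or better, and 14.7% of all pooled calls were kept. The depth of the libraries is unknown.

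The V-ATPase uses ATP to move protons into lysosomes, endosomes and secretory vesicles, and across the surface of some epithelia. Its V1 sector, on the cytoplasmic side, holds the catalytic A and regulatory B subunits with the stalk subunits C to H. Its V0 sector lies in the membrane and carries the protons through the c and c double prime ring past the large a subunit, with d and e as further members. Flies have several gene copies for many subunits, and numbered copies of this family are known for expression in few tissues such as the testis. However, Vha68-2, Vha100-2 and VhaM9.7-b are known from epithelia. Expression was not measured here, and the classes rest on names alone.

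The following stretches carry the main patterns. They lie outside all annotated exons, come from the RefSeq copy of the Release 6 assembly (dm6) and are written in the 5′ to 3′ direction of the Vha gene. Capitals mark matches, on either strand, to the Dref site TATCGATA, to its core TCGATA, to the core promoter motif GGTATTT or to the repeat GAGAG. The Vha55 stretch lies under the strongest call of the family, between Vha55 and the start of Snx3, and the summit is its base 145. The stretches of Vha26, VhaM9.7-b and VhaM9.7-a lie under other kept peaks between a Vha gene and a neighbour on the opposite strand, with the summits at bases 52, 69 and 37 of their stretches. VhaSFD is shown because its call, which was not kept, had its summit beside the motif TATCGATA. Vha100-4 is shown as a start with no call beside a paralogue with several.
Vha55 at chr3R:12627830-12628030, minus strand: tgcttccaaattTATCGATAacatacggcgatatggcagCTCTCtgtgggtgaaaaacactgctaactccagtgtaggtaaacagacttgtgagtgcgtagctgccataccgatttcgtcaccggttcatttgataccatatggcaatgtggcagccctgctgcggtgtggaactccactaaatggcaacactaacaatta
Vha26 at chr3R:5591460-5591759, plus strand: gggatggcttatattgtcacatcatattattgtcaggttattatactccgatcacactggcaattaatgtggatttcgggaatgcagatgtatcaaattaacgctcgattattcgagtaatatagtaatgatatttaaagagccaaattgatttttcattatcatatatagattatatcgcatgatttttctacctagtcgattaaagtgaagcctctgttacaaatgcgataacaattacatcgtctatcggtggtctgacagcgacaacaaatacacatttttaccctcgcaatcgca
VhaM9.7-b at chr3L:21539448-21539747, plus strand: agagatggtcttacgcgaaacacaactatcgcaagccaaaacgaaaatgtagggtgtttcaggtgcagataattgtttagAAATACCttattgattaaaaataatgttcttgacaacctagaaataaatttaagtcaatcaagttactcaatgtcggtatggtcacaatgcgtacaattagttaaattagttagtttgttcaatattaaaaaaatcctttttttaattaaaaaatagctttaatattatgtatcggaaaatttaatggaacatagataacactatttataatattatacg
VhaM9.7-a at chr3L:4262471-4262704, plus strand: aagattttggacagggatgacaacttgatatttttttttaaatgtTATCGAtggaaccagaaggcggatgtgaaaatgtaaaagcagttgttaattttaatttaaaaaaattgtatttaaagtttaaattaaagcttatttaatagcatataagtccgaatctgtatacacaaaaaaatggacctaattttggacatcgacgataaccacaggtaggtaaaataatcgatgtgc
VhaSFD at chr2L:16727827-16728034, minus strand: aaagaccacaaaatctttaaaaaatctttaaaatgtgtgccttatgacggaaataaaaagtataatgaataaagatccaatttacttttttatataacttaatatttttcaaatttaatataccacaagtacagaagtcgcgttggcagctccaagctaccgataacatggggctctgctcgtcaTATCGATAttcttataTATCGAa
Vha100-4 at chr3R:18389806-18389925, minus strand: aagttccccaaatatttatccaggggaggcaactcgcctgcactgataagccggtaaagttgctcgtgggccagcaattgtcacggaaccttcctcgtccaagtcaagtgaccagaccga

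Calls were on 11 of the 13 principal subunit genes (84.6%) and on 3 of the 13 numbered paralogues (23.1%). Of the other 7 Vha genes 4 had a call (57.1%). Over all 33 Vha genes the share with a call was 54.5%, beside 54.2% of all protein-coding genes. The family as a whole was therefore near the background, and its classes lay above and below it. Kept peaks were on 4 principal subunit genes (30.8%), on 1 numbered paralogue (7.69%) and on 2 of the other genes (28.6%). The 7 Vha genes with a kept peak make 21.2%, beside 26.4% of protein-coding genes. Counting only summits at a start, 18 Vha genes had a call (54.5%, beside 49.3% of protein-coding genes) and 7 had a kept peak (21.2%, beside 22.9%). The difference in the share with a kept peak, 23.1 percentage points between classes of 13 genes, amounts to 3 genes and was not tested. The classes also differ in length. The median gene of the principal class was 3338 bp long, of the numbered class 1470 bp and of all protein-coding genes 2164 bp. Every Vha gene with a call had one within 500 bp of one of its annotated starts. The part of length in the counts was not tested.

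**Figure D1:**
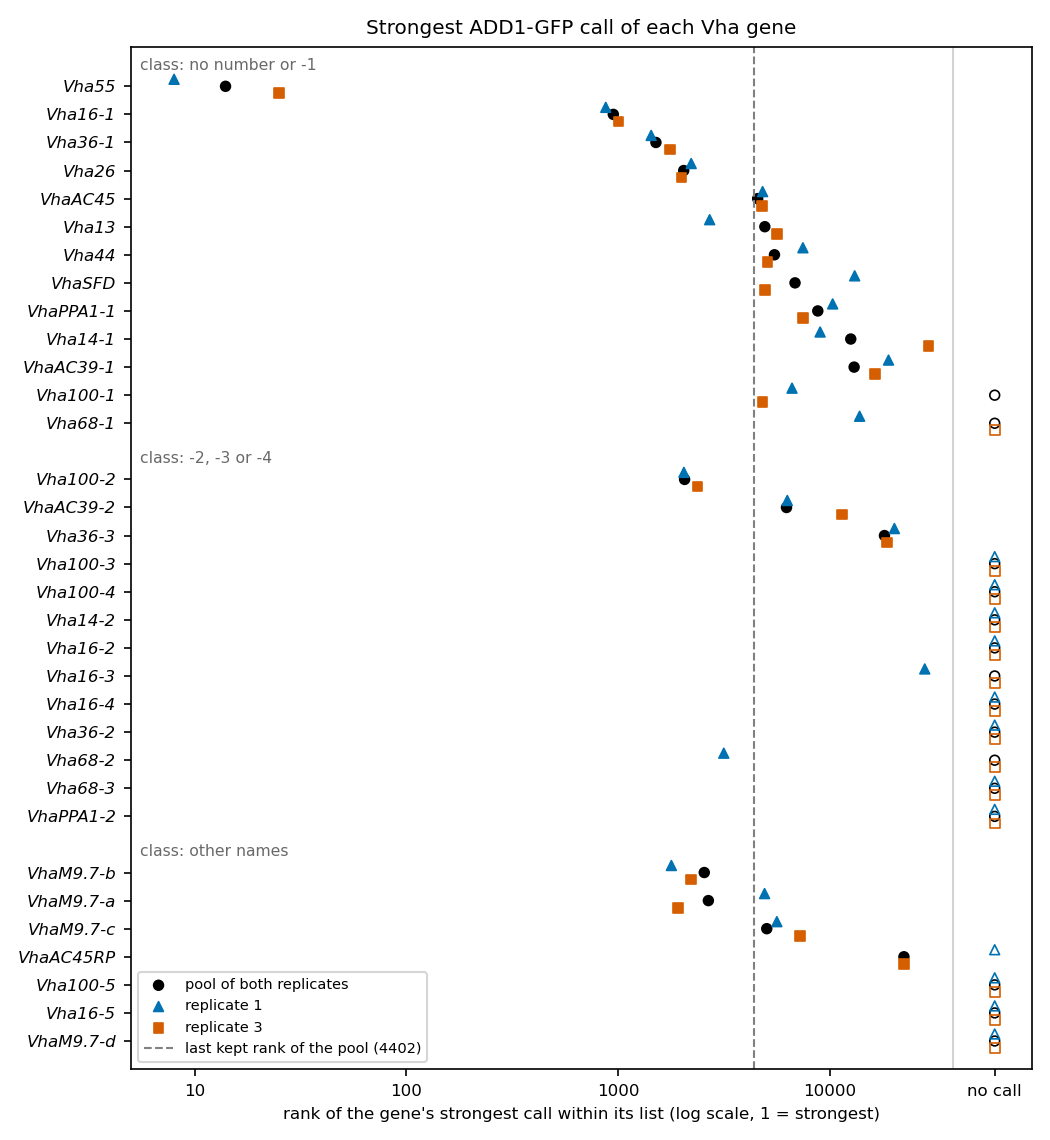
Rank of the strongest ADD1-GFP call of each Vha gene (log scale, 1 is the strongest) in the pooled list (circles), replicate 1 (triangles) and replicate 3 (squares), with genes grouped by name and open symbols where a list held no call. Of the principal subunit genes, at the top, only Vha100-1 and Vha68-1 lack a pooled call, whereas 10 of the 13 numbered paralogues lack one.

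Among V1 subunits the genes of the catalytic core differed in the pooled list. Vha55, the single B subunit gene, had the strongest call of the family, on chromosome 3R from 12627708 to 12628084, with a pooled signal of 834 and rank 14 of 30000. It ranked 8 in replicate 1 with a signal of 450 and 25 in replicate 3 with a signal of 386, so it was near the top of each list. Its summit lay 57 bp upstream of the nearest Vha55 start and 145 bp from the start of Snx3, a sorting nexin gene on the other strand. A second, interior call of Vha55 was weak, at rank 16552. The A subunit genes Vha68-1, Vha68-2 and Vha68-3 had no pooled call at all, as had 6398 of 13968 protein-coding genes. In replicate 1 alone Vha68-2 had a call at rank 3154 and Vha68-1 one at rank 13810. The A subunit genes lie near each other on 2L, with 178 bp between Vha68-2 and Vha68-3.

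Of the stalk subunits of V1, the numbered copies Vha36-2 and Vha14-2 had no call in the pool or in either replicate, and 2 principal genes had kept peaks. Vha36-1, the D subunit of the central stalk, had a kept peak on 2R from 15541188 to 15541611, with a pooled signal of 175 and rank 1508. Its rank was 1432 in replicate 1 and 1754 in replicate 3. The summit was 35 bp upstream of Vha36-1 and 37 bp from the start of CG8187. Vha26, the E subunit of the peripheral stalk, had a kept peak on 3R from 5591299 to 5591722 at rank 2040, with a signal of 150. It ranked 2213 in replicate 1 and 1990 in replicate 3. This summit was 252 bp upstream of Vha26 but 52 bp from the start of noi, a splicing factor gene.

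Other V1 genes had calls short of the threshold. Vha13, the G subunit, had its strongest call at rank 4928 with a signal of 88.9, in its 3′ UTR and 477 bp from a start of subdued. A call 359 bp upstream of Vha13 ranked 6035 in the pool, 2705 in replicate 1 and 20371 in replicate 3, so the replicates placed it far apart. Vha44, the C subunit, had 4 calls, the strongest at rank 5472 inside an intron and the start call at rank 6721, 12 bp from a start of Hmgs, the gene of HMG-CoA synthase. VhaSFD, the H subunit, had a start call at rank 6843 that ranked 13090 in replicate 1 and 4945 in replicate 3. Vha14-1, the F subunit, had a start call at rank 12543, which ranked 8990 in replicate 1 and 29195 in replicate 3. The only call on a numbered V1 paralogue was that of Vha36-3, at rank 18096, 208 bp inside the gene in a coding exon.

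In V0 the c ring gene Vha16-1 had the strongest call, a kept peak on 2R from 6632956 to 6633379 with a signal of 215 and rank 949. Its rank was 874 in replicate 1, where the signal was 103, and 1005 in replicate 3, where it was 116. The summit lay 78 bp upstream, and no start of another gene was within 500 bp, which made it the only kept peak of the family at an unshared start. Vha16-1 also had the most calls of any Vha gene, 9 in all, of which 7 were inside the gene between ranks 6048 and 26415. VhaPPA1-1, for the c double prime subunit, had a call at rank 8766.

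Vha100-2, a numbered copy of the a subunit, was the numbered paralogue with a kept peak. That peak lay on 3R from 18396979 to 18397402, with a signal of 149 and rank 2060, and ranked 2044 in replicate 1 and 2369 in replicate 3. Its summit fell in 5′ UTR sequence, 263 bp upstream of an internal start of Vha100-2 and 196 bp from a start of Vti1b, a SNARE gene that overlaps it on the other strand. Vha100-2 had 6 calls in all. Its neighbour Vha100-4, with 517 bp between the genes, had none, and neither did Vha100-3 or Vha100-5.

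The e subunit genes had kept peaks on 2 of 4 members. VhaM9.7-b had kept peaks at ranks 2551 and 3005, with signals of 134 and 122, on 3L from 21539304 to 21539727 and from 21539532 to 21539955. These regions overlap, and both matched the same call of replicate 3, at rank 2202. In replicate 1 they ranked 1784 and 4140. VhaM9.7-a had kept peaks at ranks 2667 and 3807, with signals of 131 and 106. The first matched no call of replicate 1 and rank 1925 of replicate 3, and the second matched rank 4915 of replicate 1 and 3611 of replicate 3. VhaM9.7-c had a start call at rank 5033 and VhaM9.7-d none. The d subunit genes had 1 start call each, VhaAC39-2 at rank 6238 and VhaAC39-1 at rank 13011. Here the copy numbered 2 had the stronger call.

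Of the accessory genes, VhaAC45 was the Vha gene nearest to the threshold from below, with a signal of 94.1 and rank 4560, against 96.4 for the weakest kept peak of the whole list. It ranked 4811 in replicate 1 and 4766 in replicate 3. The Vha peak nearest to the threshold from above was the second peak of VhaM9.7-a, with a signal of 106. VhaAC45RP had a weak call at rank 22362 that matched replicate 3 alone. The gene ATP6AP2, which also encodes an accessory subunit and is not a member by its present symbol, had a kept peak at rank 1291, which ranked 1203 in replicate 1 and 1441 in replicate 3.

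No pooled call was assigned to 15 Vha genes. They were 2 principal genes (Vha68-1 and Vha100-1), 10 numbered paralogues (Vha14-2, Vha16-2, Vha16-3, Vha16-4, Vha36-2, Vha68-2, Vha68-3, Vha100-3, Vha100-4 and VhaPPA1-2) and 3 of the other genes (Vha16-5, Vha100-5 and VhaM9.7-d). The pooled summit nearest to one of their starts was 1287 to 50912 bp away, with a median of 3434 bp. For 11 of the 15 (73.3%) neither replicate had a call, beside 82.2% of the 6398 protein-coding genes with no pooled call. All stretches of 32 bases within 500 bp of every start were unique in the genome for 32 of the 33 genes, and for Vha36-1 98.0% were.

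A gene with a call and one without it could lie side by side. The distances given here are gaps between genes and not between starts. Vha100-2 had 6 calls and Vha100-4, 517 bp away, had 0. The pooled summit nearest to the Vha100-4 start was 3877 bp from it. VhaPPA1-1 had 1 call and VhaPPA1-2, 2052 bp away, had 0. The pairs Vha16-3 with Vha16-2 (985 bp apart) and Vha68-2 with Vha68-3 (178 bp apart) had 0 calls on either member.

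The kept list was drawn up by comparing these same replicates, so agreement between them on kept genes was partly built in. Of the 7 Vha genes with a kept peak, 6 had a call among the 4402 strongest of both replicates, the exception being VhaM9.7-a, whose best rank in replicate 1 was 4915. Top calls of replicate 1 were on 8 Vha genes (24.2%), beside 25.9% of protein-coding genes. Those of replicate 3 were on 7 (21.2%), beside 26.9%. The genes that were top in replicate 1 without a kept peak were Vha13 and Vha68-2. Both replicates held a match for 8 of the 9 kept Vha peaks. Neither this count nor the count of 6 of 7 genes has a background beside it. A match among the 4402 strongest of both was found for 7 (77.8%), and for 74.0% of all kept peaks. Of all 44 pooled Vha calls, 36 matched replicate 1, 38 matched replicate 3 and 30 matched both. That is 68.2%, beside 59.3% of all pooled calls.

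Of the 44 Vha calls, 26 were within 500 bp of a start (59.1%) and 18 were inside a gene only. Of the calls placed on any protein-coding gene 36.0% were at a start. All 9 kept Vha peaks were at a start, beside 67.1% of kept peaks placed on protein-coding genes. Of these 9 peaks 8 were upstream of the nearest start of the Vha gene (88.9%, beside 89.8% at protein-coding starts) and 1, at VhaM9.7-a, was 21 bp downstream. Of the 26 Vha calls at a start, 23 were upstream (88.5%, beside 75.5% at protein-coding starts) and 3 downstream. None of the calls inside a gene only was kept, so by the definition of kept all were weaker than the kept peaks. The strongest of them was the 3′ UTR call of Vha13 at rank 4928.

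**Figure D2:**
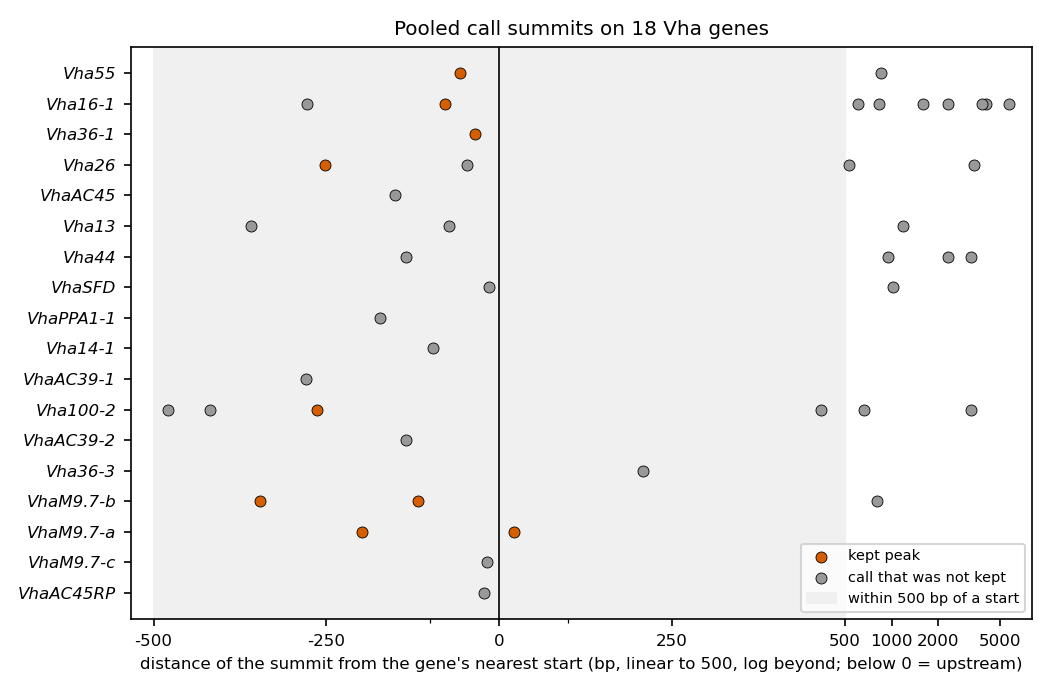
Distance of each pooled summit from the nearest start of its Vha gene in bp (linear to 500 bp, log beyond, upstream below 0), with 1 row for each of the 18 genes with a call. Kept peaks (orange) lie between 346 bp upstream and 21 bp downstream, and calls that were not kept (grey) are also found inside the genes.

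Most of the kept Vha peaks stood at starts shared with a neighbour on the opposite strand. Starts on both strands were within 500 bp of the summit for 8 of 9 kept Vha peaks (88.9%), against 961 of 2521 kept peaks at any protein-coding start (38.1%). The 9 peaks are not separate sites, since they lie on 7 genes. VhaM9.7-a and VhaM9.7-b each had 2 overlapping peaks at 1 shared start. By gene, 6 of these 7 had a protein-coding start on the opposite strand within 1000 bp upstream. So had 2166 of the 3690 protein-coding genes with a kept peak, and the gap was smaller than by peak. For pooled calls the counts were 15 of 26 at Vha starts (57.7%) and 1965 of 8298 at protein-coding starts (23.7%). In 4 of the 9 kept Vha peaks the neighbour's start was the nearer. These were the peaks beside noi, Vti1b and CG11586 and the stronger peak beside COX8, the gene of a cytochrome c oxidase subunit. Such a call cannot be told apart as belonging to the Vha gene or to its neighbour.

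Divergent starts were counted over the whole family. A protein-coding start on the opposite strand within 1000 bp upstream was found at 14 of 33 Vha genes (42.4%), beside 36.2% of protein-coding genes. Of these 14 genes 11 had a call (78.6%) and 6 a kept peak (42.9%), beside 71.4% and 42.9% of divergent protein-coding genes. Of the 19 other Vha genes 7 had a call (36.8%) and 1, Vha16-1, a kept peak (5.26%), beside 44.5% and 17.1% of protein-coding genes without a divergent start. The name classes differed in the same feature. It was present at 9 of 13 principal genes (69.2%) and at 2 of 13 numbered paralogues (15.4%). Within the genes lacking it, all 4 principal genes and 1 of 11 numbered paralogues had a call. Within the genes with it, 7 of 9 principal genes and both numbered paralogues had one. Kept peaks were on 3 of 9 principal genes and 1 of 2 numbered paralogues with a divergent start. Without one they were on 1 of 4 and 0 of 11. The part of the divergent starts in the difference between the classes was not tested. Among the divergent starts with no pooled call were those of Vha68-1, 373 bp from mTor, and of Vha100-1, 221 bp from dgt6.

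**Figure D3:**
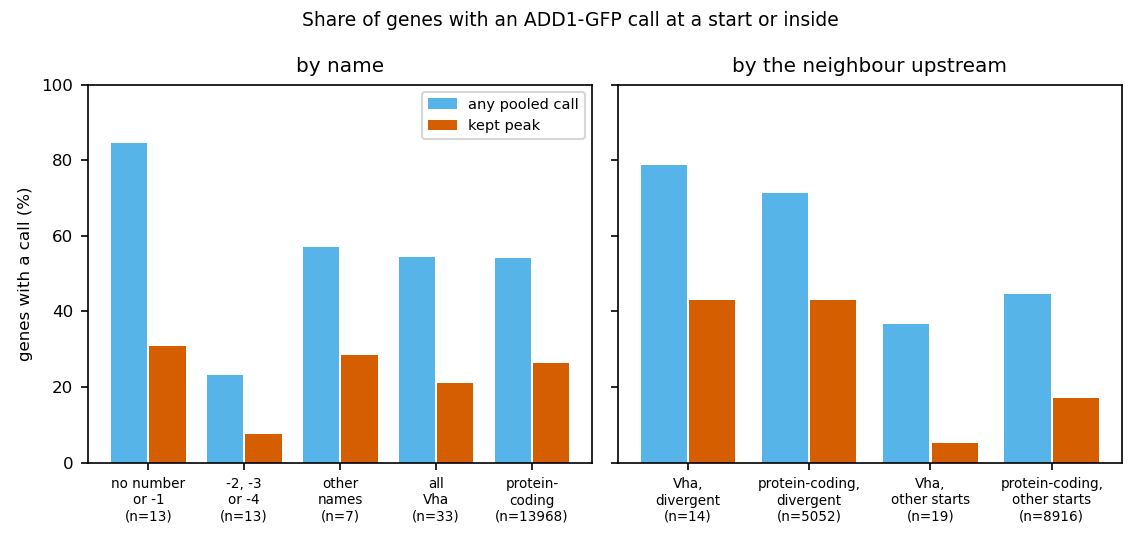
Percent of genes with any pooled call (blue) and with a kept peak (orange), by name class on the left and, on the right, for starts with or without a divergent protein-coding neighbour within 1000 bp. The principal genes reach 84.6% and 30.8%, the numbered paralogues 23.1% and 7.69%, and protein-coding genes 54.2% and 26.4%.

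Promoter windows from 250 bp before to 50 bp after the start were read for 7 short motifs on both strands. The DNA replication-related element TATCGATA, the site of the factor Dref, was in 2 of 33 Vha windows (6.06%), beside 8.94% of 13967 protein-coding windows. Both were principal genes, Vha55 with the match 189 bp and VhaSFD with the match 23 bp before the start. Its core TCGATA, which the longer motif contains, was in 8 Vha windows (24.2%), beside 27.0% of protein-coding windows. By class it was in 5 principal genes (38.5%), 1 numbered paralogue (7.69%) and 2 of the other genes (28.6%). The M1BP element GGTCACAC was in 4 Vha windows (12.1%, beside 7.52%), all of principal genes, namely Vha16-1, Vha26, Vha14-1 and Vha100-1. The motif GGTATTT was in 4 Vha windows (12.1%, beside 9.52%) and the repeat GAGAG in 8 (24.2%, beside 30.2%). For these the classes did not differ. GGTATTT was in 2 of 13 principal genes and 2 of 13 numbered paralogues (15.4% each). GAGAG was in 3 of 13 and 3 of 13 (23.1% each).

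The E-box CACGTG, the site of MITF and TFEB, factors known in mammals to drive lysosomal genes, was in 2 Vha windows (6.06%), of VhaAC45RP and VhaM9.7-d, beside 4.25% of protein-coding windows. The longer TCACGTGA, which contains it, was in 0 Vha windows and in 24 protein-coding windows (0.172%). Around the summits the share depended on the window. Within 100 bp CACGTG was at 1 of 44 Vha calls (2.27%), beside 2.06% of all pooled calls. This was the start call of Vha44 (3.85% of 26 Vha start calls), where it was part of TCACGTGA. The share at the start calls of all genes was not computed for either window. Within 200 bp CACGTG was at 5 of 44 Vha calls (11.4%), beside 4.51% of all pooled calls. All 5 were among the 26 Vha start calls (19.2%), those of Vha55, Vha16-1, Vha44, Vha100-2 and VhaAC45RP. Of these the kept peaks of Vha55 and Vha16-1 make 2 of 9 (22.2%), beside 4.82% of all kept peaks. TCACGTGA was within 200 bp at 2 of 44 Vha calls (4.55%, beside 0.197% of all pooled calls), 90 bp from the summit at Vha44 and 173 bp at Vha16-1. A match is a description of the letters and not evidence of a bound factor.

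At least 1 of the 7 motifs was within 100 bp of 5 of the 9 kept Vha summits (55.6%). This share was not computed for all kept peaks, so the count has no background beside it. TATCGATA was at 0 and TCGATA at 2 of the 9 (22.2%), beside 7.16% and 20.8% of all kept peaks. GGTATTT was at 2 (22.2%, beside 7.04%), one peak each of VhaM9.7-b and VhaM9.7-a, and GAGAG at 1 (11.1%, beside 23.1%), that of Vha100-2. GGTCACAC was at 0 (beside 4.50%). The TCGATA matches were 7 bp from the summit of Vha36-1 and 12 bp from the stronger summit of VhaM9.7-a, where they can be seen in capitals in the stretch printed above for the second gene. At Vha55 none of the 7 motifs was within 100 bp of the summit, and its TATCGATA match lay farther upstream. At VhaSFD a match to TATCGATA was 5 bp from the summit, while the call ranked 6843. The median GC content of these 201-base windows was 33.8% at kept Vha peaks (29.4% to 48.8%, the highest at Vha55) and 36.3% at all kept peaks.

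**Figure D4:**
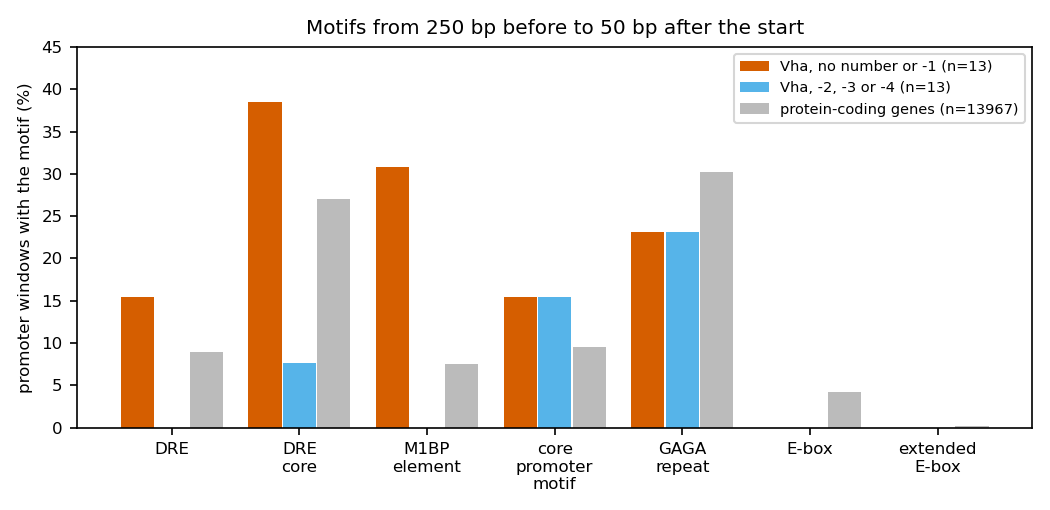
Percent of promoter windows with each of the 7 motifs for the principal subunit genes (orange), the numbered paralogues (blue) and all protein-coding genes (grey). The M1BP element is in 30.8% of principal genes, 0% of numbered paralogues and 7.52% of protein-coding genes. GGTATTT (15.4%) and GAGAG (23.1%) are equally frequent in principal genes and numbered paralogues.

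Other genes of the lysosomal pathway were counted in the same way. Of a list of 31 genes, 29 matched an annotated symbol, and of these 23 had a call (79.3%) and 11 a kept peak (37.9%), beside 54.2% and 26.4% of protein-coding genes. The names Tor and CtsD are synonyms of mTor, the divergent neighbour of Vha68-1, and of cathD. mTor had no pooled call and cathD had one at rank 15617. With both added, 24 of 31 genes had a call (77.4%) and 11 a kept peak (35.5%). Mitf, the fly homologue of the MITF and TFEB factors, had a kept peak at rank 1914, which ranked 1042 in replicate 1 and 2771 in replicate 3. It lies on chromosome 4 and had 11 calls in all, beside 1.92 calls per protein-coding gene. Mitf is 25616 bp long, beside a median of 2164 bp for protein-coding genes. In the group of lysosomal nutrient sensing 2 of 9 genes had a kept peak, Lamtor3 at rank 1017 and Lamtor2 at rank 3221. Of the lysosome membrane and enzyme genes 4 of 11 had one, led by the cholesterol transporter Npc1a at rank 1008, with CtsB at rank 1910, Lamp1 at rank 1946 and CtsL1 at rank 3070. Of the HOPS tethering complex 4 of 6 had one, lt at rank 1188, Vps39 at rank 1673, Vps11 at rank 1940 and Vps16A at rank 2683. On lt there were 16 calls in all, beside the same 1.92 per protein-coding gene. The part of chromosomal location and of gene length in the calls of Mitf and lt was not tested. The V-ATPase assembly genes Rbcn-3A and Rbcn-3B had calls at ranks 5024 and 15334, neither kept.

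Set beside ATP synthase and proteasome genes, the Vha genes had the lowest share with a call, near that of protein-coding genes. The share with a call was 54.5% for Vha genes, 73.3% for 15 ATP synthase genes and 60.4% for 48 proteasome genes, beside 54.2% of protein-coding genes. For kept peaks the ATP synthase genes were lowest. The share with a kept peak was 21.2% for Vha genes, 20.0% for ATP synthase genes and 41.7% for proteasome genes, beside 26.4% of protein-coding genes. The principal subunit genes alone had a share with a call of 84.6% and a share with a kept peak of 30.8%. These differences between lists were not tested.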

How the data were processed

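ADD1-GFP ChIP-seq was done on whole embryos in 2 replicates. Calls were made by the authors for each replicate and for the pool of both, per the deposited file lists, and then entered the irreproducible discovery rate procedure (IDR). The signal value of each region was deposited by the authors' caller, on a scale that differs between lists. Neither the aligner nor the caller is given in the sources used. The dm6 lists were used and the dm3 lists were not. Precision cannot be computed, since read numbers are unknown.

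Regions were ranked by signal within each list, and positions are 1-based on dm6. Summits were placed on Ensembl release 115 genes with Python 3.11.15, pandas 2.3.3 and numpy 2.4.6, and placement was tested on simulated summits. Motifs were read in the RefSeq Release 6 sequence from the canonical Ensembl start. A match between a pooled and a replicate call needed an overlap of 50% or more of the shorter region. There is 1 group, so no test was run. The members, classes, pathway lists and motifs were chosen with earlier results of these data known, so counts are descriptions. Named genes are all Vha genes, genes with a start within 500 bp of a kept Vha summit and pathway genes with a kept peak, up to 4 per group. ATP6AP2, Rbcn-3A, Rbcn-3B, subdued, Hmgs, mTor, cathD and dgt6 were named after their values were seen. The alternatives were start distances of 200 and 1000 bp, other positions and assignments of a call, each replicate alone, other matching rules and other classes.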

Additional observations from a re-analysis of the deposited data

How the results depend on the processing

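No result reversed. Kept peaks were on 5 to 8 Vha genes and any pooled call on 17 to 21 under all alternatives run. The numbered paralogues with a kept peak were 1 in the main count, 1 to 2 with either replicate left out (its partner's strongest calls taken alone), 0 with a call given only to the nearest start, 0 with the classes of the epithelial pump, and 2 with the unclassed genes added. The difference in the share with a kept peak was 23.1 points and became 15.4 with starts within 200 bp, 30.8 within 1000 bp, 40.0 with the epithelial classes and 25.2 with the unclassed genes. Left-out replicates each gave 23.1.

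The count of any pooled call by class was added after seeing the data. The numbered paralogues with a call were 3, 3 to 5 with a replicate left out (5 without replicate 3, 3 without replicate 1) and 6 with the unclassed genes. The difference of 61.5 points became 53.8 within 200 bp, 70.0 and 54.1 with these other classes, and 61.5 to 69.2 with a replicate left out. For the counts of any pooled call, restricting kept peaks by signal or by replicate match gives no value. The causes were not tested. No paired analysis was possible because there is 1 group. Depth is unknown, so an uncalled gene is not shown to be unbound.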

Other observations

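Some Vha genes had calls in a replicate but none in the pool. Vha68-2, a catalytic A subunit gene, had a call of rank 3154 and signal 57.8 in replicate 1, 141 bp upstream of a start, while the nearest summit was 16223 bp away in the pool and 16191 bp away in replicate 3. Of the 4402 strongest calls of replicate 1, 67 (1.52%) overlapped no pooled call. Vha100-1, known as the neuronal a subunit gene, had calls in both replicates, at rank 6623 in replicate 1 and at ranks 4799 and 25012 in replicate 3, with the nearest pooled summit 3344 bp from a start. Of the 6398 protein-coding genes with no pooled call, 191 (2.99%) had a call in both replicates. Vha68-1 and Vha16-3 had weak calls in replicate 1 alone, at ranks 13810 and 28043.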
